A study of Rattus norvegicus with 14 samples.

Results

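The regions described are 6246 windows of 1 kb in the rat genome that hold few CpG cytosines, lie away from CpG-dense DNA and were partly methylated in unoperated oesophagus. They were chosen from 1 kb tiles counted from position 1 on chromosomes 1 to 20. A tile qualified when 1 to 19 distinct CpG cytosine positions in it were listed in any of the 13 libraries. No tile within 5 tiles of it held 60 or more listed positions. At least 3 of its cytosines had to be measured, which means listed in at least 3 libraries of each group. The pooled methylation of those cytosines in replicates 1 and 2 of the unoperated group had to be 30% or more and below 70%. The members made up 24.7% of the 25268 distal CpG-sparse tiles of any methylation, and 65034 tiles of the whole genome had 3 or more measured cytosines. Of the other distal CpG-sparse tiles, 1518 were under 30% and 17504 were at 70% or more.

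DNA methylation in mammals is mostly carried by cytosines that precede a guanine. CpG-poor DNA between genes is methylated in most cells, whereas CpG islands are usually unmethylated. Intermediate levels in CpG-poor DNA are known from distal regulatory elements such as enhancers, whose state differs between cell types, and from long domains that lose methylation as cells divide. In DNA from a whole tissue an intermediate level can arise from a mixture of cells, from unequal alleles or from neighbouring cytosines in opposite states.

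All tissue came from the oesophagus of male rats aged 8 to 9 weeks. The nonsurgical controls (NSC, 4 libraries) were full-thickness oesophagus of rats that had no operation. Both operated groups had a surgical defect repaired with a bi-layer silk fibroin graft, an acellular scaffold made from silk protein. Day 1 (5 libraries) was host tissue punched out within 2 mm of the defect edge 1 day after repair, and week 1 (4 libraries analysed) was the new tissue in the graft area after 1 week. The operated groups therefore differ from each other in tissue site as well as in time, and the part of each cannot be told apart. No group of operated oesophagus without a graft was analysed here. The labels do not say that the libraries of a group came from separate animals, so every p-value measures the spread between these libraries, which may be partly technical. No batch is given, and the sample codes follow the groups, so that processing order and group cannot be told apart.

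Each library listed between 1432898 and 4181382 CpG cytosines, each with at least 5 reads. Summed reads over listed cytosines ran from 9676493 in day 1 replicate 2 to 49782600 in NSC replicate 1. Day 1 replicate 2 had reads in 1909 of the 6053 members that entered the test, or 31.5%, while each of the other libraries had reads in at least 5496. The 193 members left out of the test had no reads in NSC replicate 3 or 4. Because the controls that chose the members carry no independent information about them, NSC replicates 3 and 4 were the controls in the main comparisons. Alternatives with other sets of controls are named as such.

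A member held a median of 13 listed positions (range 3 to 19) and up to 17 measured cytosines, and 3032 of the 6246 had exactly 3. The nearest tile with 60 or more listed positions was a median of 87 kb away, against 65 kb for the distal tiles under 30% and 98 kb for those at 70% or more. The limits of 30% and 70% cut through a continuous range. The 3 tiles just below the lower limit pooled between 29.952% and 29.988% in NSC replicates 1 and 2, and the 3 members just above it were at 30% exactly. The 3 members just below the upper limit were between 69.955% and 69.975%, and the 3 tiles just outside it were at 70% exactly. In NSC replicates 3 and 4 the 3 lowest members pooled 17.5%, 17.9% and 39.0%, and the 3 tiles below them pooled 43.0%, 27.0% and 33.6%. These 6 tiles did not keep the order that the first pair of libraries gave them. Over the members in the test, the mean of NSC replicates 3 and 4 was between 30% and 70% in 72.8%, at 70% or more in 22.6% and below 30% in 4.63%.

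The partly methylated tiles were more methylated in operated tissue than in the unoperated controls at both times, although only a minority of them passed the test tile by tile. The median over members was 57.1% in NSC replicate 1 and 57.6% in NSC replicate 2, the libraries that chose the tiles. It was 59.2% in NSC replicate 3 and 58.8% in NSC replicate 4, the libraries used as controls. In the day 1 libraries it was 77.2%, 73.3%, 73.0%, 76.9% and 71.5% in replicates 1 to 5. In the week 1 libraries it was 70.6%, 71.4%, 66.7% and 73.3% in replicates 1 to 4. Every operated library lay above both tested controls, and the operated groups overlapped each other. The mean of the library medians was 59.0% ± 0.263 (SD, n = 2) in NSC replicates 3 and 4, 74.4% ± 2.55 over the day 1 libraries (SD, n = 5) and 70.5% ± 2.80 over the week 1 libraries (SD, n = 4). Median reads per member with reads were 71 and 59 in NSC replicates 3 and 4, 15 to 73 in the day 1 libraries and 32 to 58 in the week 1 libraries. On the 1691 members with reads in all 11 of these libraries the same means were 58.3% ± 0.80, 72.3% ± 1.63 and 67.3% ± 2.4995. In DNA from a bulk tissue, a changed share of cell types and a changed level within a cell type cannot be told apart.

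**Figure D1:**
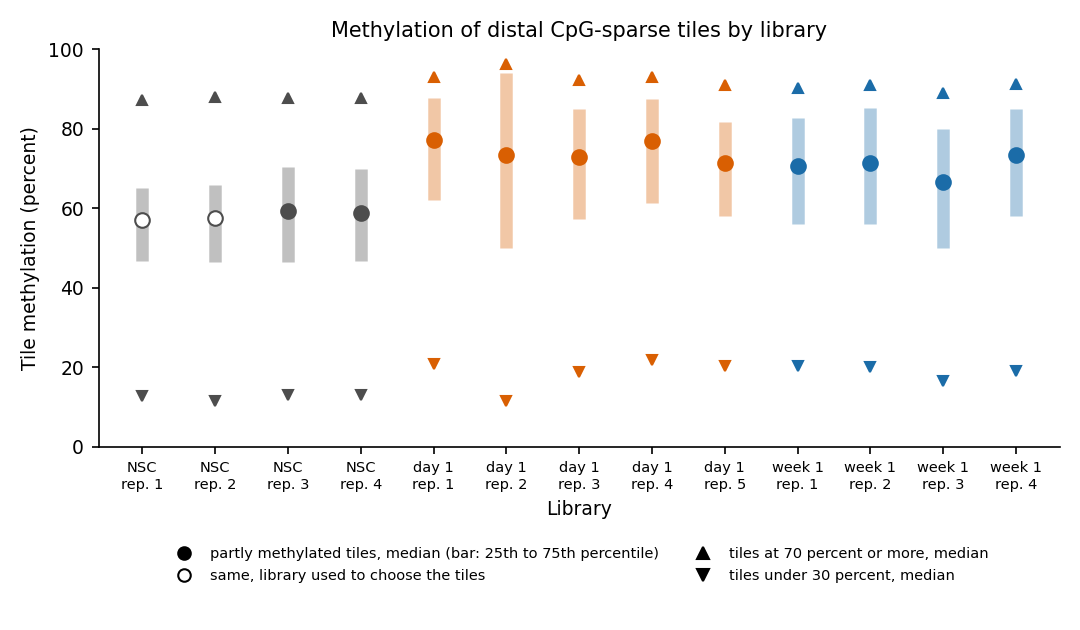
Methylation in percent (vertical axis) in each of the 13 libraries (horizontal axis). Circles are medians over the partly methylated tiles with bars from the 25th to the 75th percentile, open circles are the libraries that chose the tiles, and triangles are medians of the distal sparse tiles at 70% or more (upward) and under 30% (downward). The partly methylated tiles sit at 58.8% and 59.2% in the tested controls and at 66.7% to 77.2% in operated tissue.

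Distal tiles outside the 30% to 70% range also had higher group means of the library medians in operated tissue, by less. The mean of the library medians in the tiles under 30% was 12.99% in NSC replicates 3 and 4, 18.6% ± 4.17 in the 5 day 1 libraries (SD) and 19.01% ± 1.66 in the 4 week 1 libraries (SD). Day 1 replicate 2, at 11.4%, was the 1 operated library below the controls there. In the tiles at 70% or more it was 87.8%, 93.2% ± 1.95 and 90.3% ± 1.04. Whether the members differ from either set in their change was not tested.

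At day 1 the wound margin had higher methylation than the controls across most members. The median difference from the mean of NSC replicates 3 and 4 was 13.5 percentage points over the 6053 members tested, against 2.96 points over all 62737 tiles tested, 4.55 points over the distal tiles under 30% and 3.50 points over those at 70% or more. The 25th and 75th percentiles of the members lay at 2.37 and 24.1 points. A difference of 10 points or more upward was found in 3543 members (58.5%) and of 10 points or more downward in 640 (10.6%), beside 27.3% and 6.36% of all tiles. The spread between the controls alone was wide at single tiles. Between NSC replicate 4 and NSC replicate 3 the median difference was 0, with 25.3% of members 10 points or more higher and 26.1% 10 points or more lower. At 25 points or more the controls differed upward in 6.64% and downward in 7.83% of members, and day 1 differed from the control mean upward in 23.4% and downward in 4.84%, beside 7.89% and 2.34% of all tiles. The control comparison sets 1 library against 1, while the day 1 comparison sets means of 5 and 2 libraries, so these shares carry different errors. Of the distal tiles under 30%, 24.3% were 25 points or more higher at day 1 and 1.52% lower by as much. In those at 70% or more the shares were 2.34% and 1.66%.

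**Figure D2:**
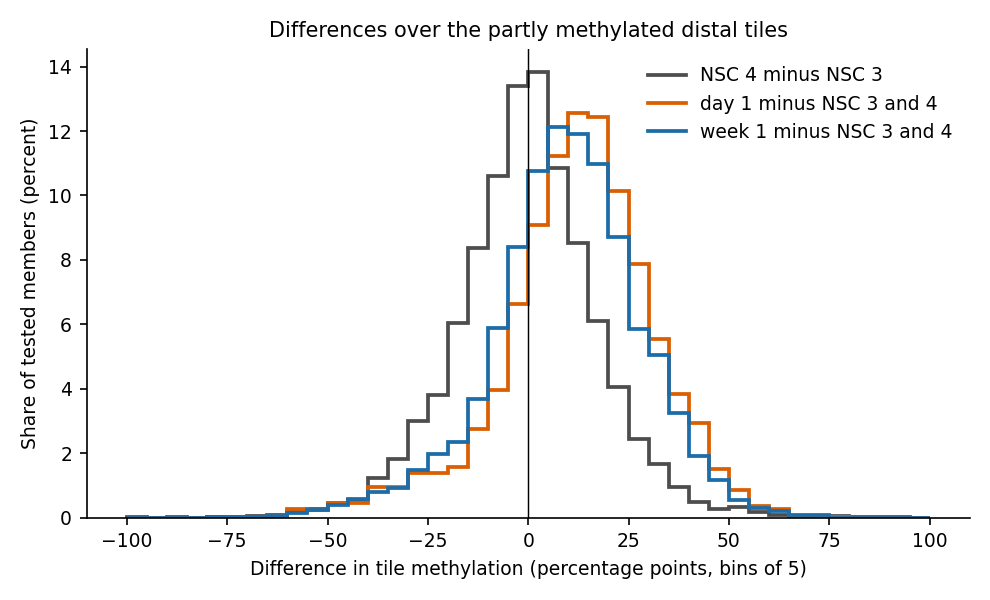
Share of the 6053 tested members in percent (vertical axis) by difference in tile methylation in percentage points (horizontal axis, bins of 5). The curve of NSC replicate 4 minus NSC replicate 3 is centred on 0, the curves for day 1 and week 1 against the mean of these libraries are centred on 13.5 and 10.05 points, and all 3 have long tails in both directions.

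Tile by tile, 487 members (8.05%) were called different at day 1, 381 higher and 106 lower, by edgeR's quasi-likelihood F test with a Benjamini-Hochberg adjusted p below 0.05 over all tiles and a difference of at least 10 points. Of all tiles tested 3.95% were called, 2.9% higher and 1.05% lower. An unadjusted p below 0.05 was found in 2063 members (34.1%, against 20.4% of all tiles). The day 1 libraries with reads did not overlap NSC replicates 3 and 4 in 2830 members (46.8%), against 29.3% of all tiles. The count of calls depends on the controls and on 2 of the day 1 libraries. Nearly all calls were lost without NSC replicate 3 or without NSC replicate 4, in members and over all tiles alike. With 1 control left, that library is assumed to vary like the other groups. The count was 167 without day 1 replicate 1 and 172 without day 1 replicate 4. Without day 1 replicate 1 the share called was 2.76% of members and 1.61% of all tiles, and without day 1 replicate 4 it was 2.84% and 1.59%. The median difference stayed between 12.8 and 14.5 points when each library was left out in turn. Limma on tile percent made 805 calls (13.3% of members, 5.77% of all tiles), 682 higher and 123 lower. Limma after centring each library on its own median made 466 calls (7.70% of members, 3.71% of all tiles) but split them 249 higher and 217 lower. The median member difference was then 4.06 points beside -6.38 points over all tiles. The share of higher calls thus depends on centring. Over all tiles the median of the group mean was 83.8% at day 1 and 74.0% in the controls. The median difference of a tile was only 2.96 points, so centring on library medians takes away more than the typical difference.

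The called members mostly left the range of partial methylation, with median differences of 41.4 points (higher) and -45.5 points (lower). Large differences are called most readily, so this describes the calls. Of all members tested, 61.3% were at 70% or more at day 1 by group mean and 5.63% below 30%. The 381 called higher at day 1 went from a median of 42.7% in the controls to 85.5%, and 353 of them were at 70% or more after the change. The 106 called lower went from a median of 62.6% to 13.7%, and 100 of them were below 30% afterwards. In NSC replicates 1 and 2, which chose the members, the same tiles had medians of 51.3% (called higher) and 57.7% (called lower). Called members were also deeper, with a median of 187 reads (higher) and 167.5 reads (lower) in NSC replicates 3 and 4 together, against 130 over all members tested. When members were put in 4 classes by those reads, the share called went from 4.54% in the shallowest to 13.9% in the deepest. The median difference hardly moved over these classes, lying between 13.3 and 13.9 points. With 5 reads drawn at each cytosine the median difference was 12.7 points and 52 members were called (0.859%, against 0.639% of all tiles).

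Among the members, the day 1 difference was larger the lower the starting level. In classes of 10 points of pooled methylation in NSC replicates 1 and 2, the median difference was 20.5 points for members at 30% to 40%, 16.7 at 40% to 50%, 14.1 at 50% to 60% and 11.5 at 60% to 70%. The class at 30% to 40% had the largest median of the 10 classes of distal tiles, with 16.6 points at 20% to 30% below it and 7.81 points at 70% to 80% above the members. At the ends of the scale the median was 0.66 points below 10% and 1.30 points at 90% or more. The range open to an increase is itself smaller for a higher starting level, so the differences were also set against the unmethylated level. The mean unmethylated level over the members was 42.2% in the controls, and in the 5 day 1 libraries it was 0.722 ± 0.049 (SD, n = 5) of the control value, with a range of 0.667 to 0.768. For the 4 classes from 30% to 70% this ratio was 0.711, 0.745, 0.726 and 0.713, and for the distal tiles at 70% to 80% and 80% to 90% it was 0.720 and 0.745. At day 1 the unmethylated share was thus lower by a like fraction in every one of these 6 classes, each within 1 SD of the members' mean. That SD is the spread between day 1 libraries, and whether the classes differ was not tested. The fraction was 0.847 ± 0.093 (SD, n = 5) for the tiles at 90% or more and 0.947 ± 0.016 for those below 10%. In the classes directly below the members it was 0.759 at 20% to 30% and 0.827 at 10% to 20%. The first of these also lay within 1 SD of the members' mean, so the like fraction does not end at the lower limit of 30%.

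**Figure D3:**
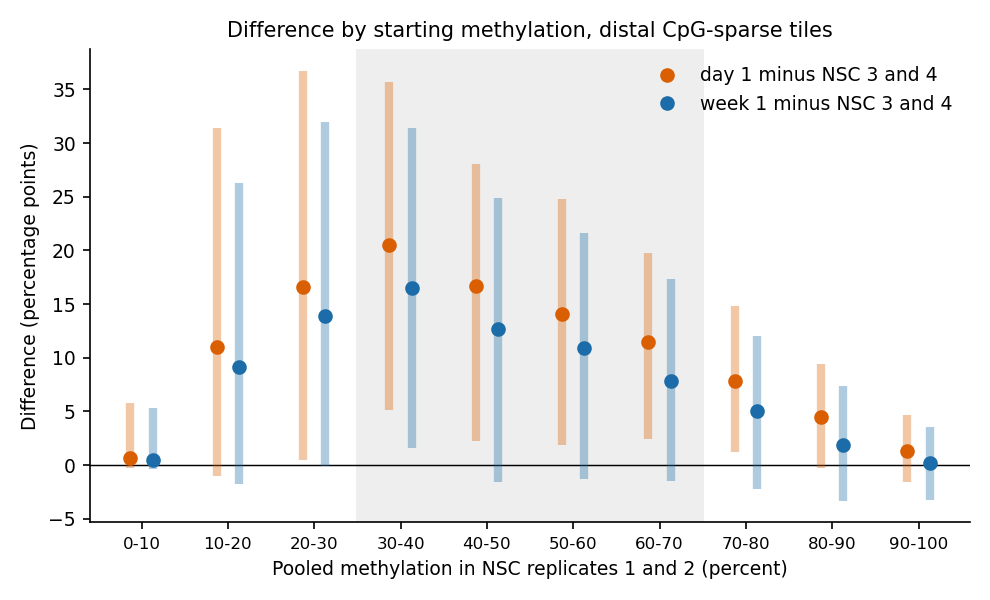
Difference from NSC replicates 3 and 4 in percentage points (vertical axis) by pooled methylation in NSC replicates 1 and 2 in classes of 10 points (horizontal axis), for all distal CpG-sparse tiles. Points are medians over tiles and bars run from the 25th to the 75th percentile. The shaded classes are the members, where the day 1 median goes from 20.5 to 11.5 points and the week 1 median from 16.5 to 7.84 points.

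The 6 largest day 1 losses took tiles from control means of 58.7% to 74.9% to day 1 means of 8.15% to 22.2%. None of the 24 calls at the tiles named for their change, at day 1 or week 1, held without NSC replicate 3 or without NSC replicate 4. These tiles were named by size of difference among called members whose groups do not overlap and that had at least 10 reads in every library compared. Over the tiles named for their change, the 95% Wilson interval of a single library's value was a median of 22.01 points wide (5.07 to 65.2), which covers counting error only, and a 0% allows a level of up to 4.17% to 42.9%. Reads of a tile are summed over its cytosines, so 1 read can be counted at several of them. These intervals and limits are therefore too narrow. They are given by their place in the assembly mRatBN7.2. No gene or feature is stated for them, because annotation for mRatBN7.2 was not used. The largest loss was at chr11:77737001-77738000, a tile with 3 measured cytosines. NSC replicates 3 and 4 had 76.9% and 70% there, the day 1 libraries 7.69%, 8.05%, 33.3%, 9.32% and 0%, and the week 1 libraries 25.7%, 4.00%, 2.63% and 0%. All 9 operated libraries lay below both tested controls. NSC replicates 1 and 2, which chose the tile, had 34.6% and 58.8%. Its log2 odds ratio at day 1 was -4.70 ± 1.15 (SE; edgeR adjusted p = 0.0213). The control values rested on 26 summed reads in replicate 3 (95% Wilson interval 57.9% to 89.0%) and 10 summed reads in replicate 4 (39.7% to 89.2%), and the 0% in day 1 replicate 5 on 72 summed reads, which allows a level of up to 4.17%. The 3 cytosines lay within 22 bp and had 8, 14 and 14 reads in the pooled controls, so the same reads may be counted more than once.

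The deepest of the 6 largest losses was at chr4:152382001-152383000. NSC replicates 1 to 4 had 60.9%, 54.2%, 75.2% and 70.4% there, on 294 to 445 reads each. The day 1 libraries had 9.38%, 12.8%, 14.8%, 21.03% and 33.1%, and the week 1 libraries 26.7%, 22.4%, 15% and 21.4%. No operated library reached either tested control. The log2 odds ratio was -3.67 ± 0.56 at day 1 (SE; edgeR adjusted p = 0.00188) and -3.29 ± 0.57 at week 1 (adjusted p = 0.00674). At chr10:71792001-71793000 the controls had 69.4% and 69.8% and the day 1 libraries 5.26%, 0%, 8.33%, 10% and 28.3%. The widest spread among the 6 losses was at chr4:154443001-154444000, where the day 1 libraries ran from 0% to 54.2% and the controls had 73.8% and 75.9%. At chr6:7549001-7550000 the tested controls had 67.4% and 50%, and the day 1 libraries ran from 0% to 18.9%. NSC replicate 2, which helped to choose that tile, had 16.3% on 43 reads, inside the day 1 range.

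The 6 largest day 1 gains took tiles from control means of 22.6% to 33.3% to day 1 means of 78.3% to 89.4%. At chr20:9635001-9636000 the controls had 26.6% and 21.3% and the day 1 libraries 85.5%, 88.9%, 90.2%, 78.0% and 90.1%. The week 1 libraries were split there, with 81.5%, 44.4%, 58.1% and 80%. Day 1 lay above the controls by 62.6 points (log2 odds ratio 4.30 ± 0.75, SE; edgeR adjusted p = 0.00382), and the week 1 difference of 42.1 points missed the threshold (adjusted p = 0.0530). At chr3:105057001-105058000, which with 10 had the most measured cytosines of the 6 gains, the controls had 10.3% and 34.97%. The day 1 libraries had 82.0%, 100%, 69.2%, 91.8% and 62.0% and the week 1 libraries 62.5%, 80%, 58.6% and 72.4%. NSC replicates 1 and 2 had 33.0% and 57.8% there, so the 4 control libraries were far apart at this tile, and the highest of them came near the lowest operated library.

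Spread among the 4 unoperated libraries was a feature of several named gains. At chr10:28785001-28786000 NSC replicate 3 had 50% and NSC replicate 4 had 10.5%, and the libraries that chose the tile had 50% and 61.3%. At chr8:104741001-104742000 the tested controls had 34.8% and 31.8%, and the libraries that chose it had 60% and 53.7%. Day 1 means at these tiles were 86.5% ± 7.71 and 89.4% ± 16.2 (SD, n = 5), and the day 1 libraries lay above both tested controls at each. At chr8:104741001-104742000 the lowest day 1 library, at 61.1%, lay just above NSC replicate 1.

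**Figure D4:**
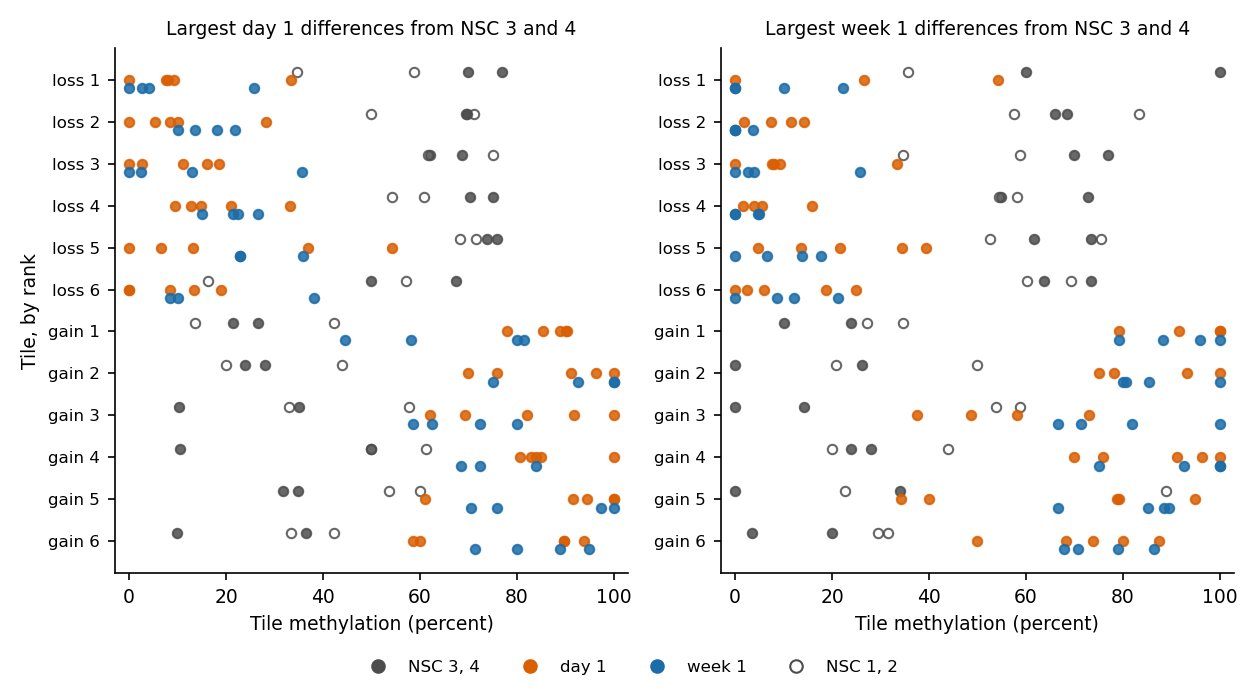
Tile methylation in percent (horizontal axis) in each library for the 6 members with the largest decrease and the 6 with the largest increase (vertical axis, by rank) at day 1 (left) and week 1 (right) against NSC replicates 3 and 4. Filled grey points are these controls, open points the libraries that chose the tiles. In the left panel losses end between 0% and 54.2% and gains between 58.6% and 100% in the day 1 libraries.

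New tissue in the graft area at week 1 was also more methylated at most members. The week 1 comparison uses the same pair of controls as the day 1 comparison, so a departure of those controls enters both. The median difference was 10.05 points over the members, against 1.39 points over all tiles, 3.59 points over the distal tiles under 30% and 1.42 points over those at 70% or more. A difference of 10 points or more upward was found in 3033 members (50.1%) and downward in 770 (12.7%), beside 22.4% and 8.2% of all tiles. The median lay between 9.38 and 11.2 points when each library was left out. By starting level it went from 16.5 points at 30% to 40% to 7.84 points at 60% to 70%. The unmethylated level was 0.778 ± 0.053 of the control value (SD, n = 4; range 0.732 to 0.853). In the more methylated classes it was 0.824 at 70% to 80%, 0.888 at 80% to 90% and 1.01 at 90% or more.

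At week 1, 193 members (3.19%) were called different from the controls by the same edgeR test, 54 lower and the others (2.30% of members) higher, against 1.64% of all tiles, 1.08% higher and 0.556% lower. The share was 5.38% in the distal tiles under 30% (4.89% higher, 0.482% lower). It was 0.741% in those at 70% or more (0.219% higher, 0.522% lower). An unadjusted p below 0.05 was found in 1542 members (25.5%, against 15.4% of all tiles). Libraries did not overlap in 2472 members (40.8%), against 25.3% of all tiles. Without NSC replicate 3 or without NSC replicate 4 all member calls were lost, and nearly all of those over all tiles. With 1 control left, that library is assumed to vary like the other groups. The count was 70 without week 1 replicate 1, 76 without week 1 replicate 2 and 24 without week 1 replicate 4. These were 1.16%, 1.26% and 0.397% of members, beside 0.719%, 0.757% and 0.276% of all tiles. Limma after centring each library gave 366 calls (6.05% of members, 2.52% of all tiles), 218 higher and 148 lower. The median member difference was then 3.61 points beside -5.01 points over all tiles. The members that edgeR called higher went from a median of 42.8% to 89.6%. Of them 94.2% were at 70% or more afterwards, beside 51.7% of all members tested. The 54 called lower went from 63.8% to 12.8%, and 51 were below 30%, beside 5.39% of all members tested. In NSC replicates 1 and 2 these tiles had medians of 51.6% (called higher) and 57.4% (called lower).

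Losses at week 1 reached 0 in several libraries. At chr10:11174001-11175000 NSC replicates 3 and 4 had 66.1% and 68.4%, and the week 1 libraries had 0%, 0%, 0% and 3.70%. Every operated library with reads lay far below both controls. The 4 day 1 libraries with reads had 14.3%, 7.50%, 1.75% and 11.5%, and day 1 replicate 2 had none. The log2 odds ratio was -6.97 ± 1.22 at week 1 (SE; edgeR adjusted p = 0.0074) and -4.39 ± 0.90 at day 1 (adjusted p = 0.00909). At chr17:13488001-13489000 the controls had 72.7% and 54.8% and the week 1 libraries 5.00%, 0%, 0% and 4.65%. The largest loss by mean difference was at chr8:46316001-46317000, where the controls had 100% and 60% and the week 1 libraries 22.2%, 0%, 0% and 10%. It rested on 27 and 15 control reads and passed narrowly (edgeR adjusted p = 0.0499). NSC replicate 2, the only library with reads there of the pair that chose it, had 35.7%, and the 3 day 1 libraries with reads had 0%, 54.2% and 26.7%.

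The 6 largest gains at week 1 ended above 65% in every week 1 library. At chr16:45582001-45583000 the controls had 28.0% and 23.9%, the week 1 libraries 100%, 75%, 92.6% and 100%, and the day 1 libraries 91.2%, 100%, 96.3%, 75.9% and 70%. This tile was named in both comparisons, with differences of 60.7 points at day 1 (edgeR adjusted p = 0.0175) and 65.9 points at week 1 (adjusted p = 0.0128). At chr7:65512001-65513000 the controls had 23.8% and 10% and the week 1 libraries 95.8%, 88.2%, 79.2% and 100%. The 4 day 1 libraries with reads there had 100%, 100%, 91.7% and 79.3%. At chr2:32164001-32165000 the gain of 65.5 points had a wide spread among controls, with 22.7% and 88.9% in the libraries that chose the tile and 0% and 34.04% in those tested.

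The 2 operated groups were not told apart at any single member. No member and no tile of the 62737 was called between week 1 and day 1 by edgeR (0 of all tiles), and limma on tile percent called 0 members as well. An unadjusted p below 0.05 was found in 327 members (5.402%), against 5.93% of all tiles. The median difference, week 1 minus day 1, was -2.80 points over members and -0.82 points over all tiles, and it turned to 0.13 points when each library was centred on its own median. Libraries of the groups did not overlap in 290 members (4.79%), 224 lower and 66 higher at week 1, against 3.97% of all tiles, 3.02% lower and 0.95% higher. Since no member passed, none was named for this comparison. By group mean, 33.1% of members lay between 30% and 70% at day 1 and 42.9% at week 1, against 72.8% in NSC replicates 3 and 4. The share at 70% or more was 61.3% and 51.7%, and the share below 30% was 5.63% and 5.39%, against 22.6% and 4.63% in the controls.

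Partial methylation of a tile was mostly partial methylation of its single cytosines. Of 23529 member cytosines with at least 10 pooled reads in NSC replicates 3 and 4, 69.3% were between 20% and 80%, 8.63% below 20% and 22.04% above 80%. At day 1 the shares were 43.9%, 8.03% and 48.1%, and at week 1 52.6%, 7.65% and 39.7%. The share in the middle was smaller in operated tissue and the share above 80% larger, while the share below 20% differed by less than 1 percentage point. In the distal tiles at 70% or more, 27.6% of cytosines were between 20% and 80% in the controls. This share was also smaller in operated tissue there, with 13.3% at day 1 and 19.8% at week 1. The share above 80% in those tiles was 71.8% in the controls, 85.8% at day 1 and 79.4% at week 1. In the distal tiles below the members' range the middle share was larger in operated tissue. It was 30.7% in the controls, 36.8% at day 1 and 38.3% at week 1. The pooled reads at a member cytosine had a median of 34 in the 2 controls, 59 at day 1 and 43 at week 1, and the part of depth in these shares was not tested.

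Within a tile, cytosines of the members differed from each other more in the controls than in operated tissue. The range from the lowest to the highest cytosine of a tile had a median of 42.1 points over 5671 members in the controls. It was 27.9 points over 6053 members at day 1 and 30.8 points at week 1, with the same difference in depth. The range was also smaller in operated tissue in the distal tiles above the members' limits. Its median there was 21.1 points in the controls, 12.4 at day 1 and 15.4 at week 1. In the distal tiles below the members' limits the medians were 17.5, 18.4 and 19.3 points. In 785 members (13.8%) the controls had a cytosine below 20% beside one above 80%, and in 1866 (32.9%) all cytosines were between 20% and 80%. At day 1 all cytosines were between 20% and 80% in 642 members (10.6%) and all above 80% in 805, against 53 in the controls. Of CpG dyads, where the cytosines of both strands of one site were measured, 1573 had at least 10 pooled reads on each strand in the controls. Their strands differed by a median of 12.2 points (Pearson r across dyads 0.68), and at day 1 by 7.67 points over 1811 dyads (r = 0.84). In the distal tiles above the members' limits the medians were 7.69 points in the controls and 4.72 at day 1 (r = 0.57 and 0.76). In those below the limits they were 5.02 and 4.54 points (r = 0.77 and 0.92). Dyads are not independent replicates, and the strands share libraries and unequal depth.

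Cytosines of a called tile moved together. In the 381 members called higher at day 1, 1661 of 1717 cytosines (96.7%) were higher than in the controls, and in 339 tiles all were. In the 106 called lower, 429 of 442 were lower, and in 94 tiles all were. At week 1 the counts were 587 of 601 and 223 of 227. Since the calls came from sums of the same cytosines, these counts describe the calls and test nothing. At chr4:152382001-152383000 the 5 cytosines between positions 152382461 and 152382562 had 78.9%, 68.9%, 61.3%, 63.9% and 76.0% in the pooled controls, on 90 to 299 reads each. At day 1 they had 28.0%, 17.5%, 10.8%, 20.1% and 14.7%, and at week 1 29.98%, 27.2%, 14.6%, 18.9% and 14.8%. At chr3:105057001-105058000 the 10 cytosines spanned 86 bp and lay between 8.11% and 31.4% in the controls and between 60.4% and 92.7% at day 1.

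**Figure D5:**
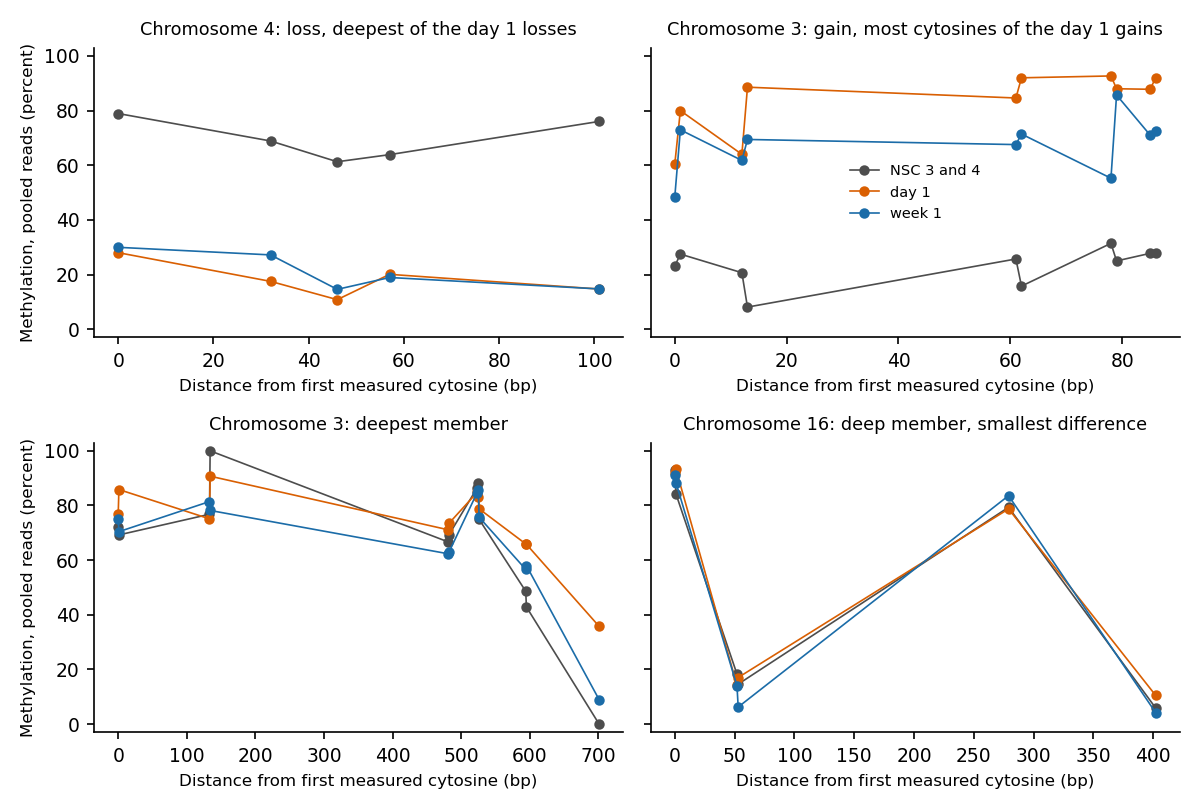
Methylation in percent of pooled reads (vertical axis) at each measured cytosine by its distance in bp from the first (horizontal axis) in 4 members, for NSC replicates 3 and 4, day 1 and week 1. In the upper panels every cytosine is lower (chromosome 4) or higher (chromosome 3) in both operated groups, and in the lower right panel the 3 groups trace the same steps between 4.19% and 93.2%.

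The 6 most deeply read members showed how differences look where counting error is small, and they were named for depth whatever their change. The deepest, chr3:1553001-1554000, had 49.1% and 51.0% in the controls, on 1843 and 2506 reads. The day 1 libraries had 69.3%, 76.3%, 69.7%, 71.3% and 72.6%, and the week 1 libraries 66.9%, 61.7%, 58.7% and 63.3%. Both operated groups lay above the tested controls, and the lowest week 1 library lay just below NSC replicate 1, at 58.8%. The day 1 difference of 21.8 points passed the test (edgeR adjusted p = 0.0141), and that of week 1, 12.6 points, did not (adjusted p = 0.232). Without NSC replicate 3 no member was called higher at day 1, this tile included. Most of its control reads, 2979, lay at 1 cytosine, position 1553881, where the pooled level was 42.9% in the controls, 65.8% at day 1 and 58.0% at week 1. At the last cytosine of the tile, position 1553987, it was 0% on 82 control reads, which allows a level of up to 3.66%, and 35.8% at day 1.

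None of the other 5 deep members passed in either comparison, the lowest edgeR adjusted p being 0.285 at day 1 and 0.654 at week 1. At chr19:13770001-13771000 the controls had 67.4% and 65.4% and the day 1 libraries 77.3%, 76.9%, 75.2%, 71.2% and 70.4%, all above the controls (difference 7.76 points; edgeR adjusted p = 0.373). Of the other deep members, 3 lay near each other on chromosome 1, starting at 55036001, 55060001 and 55070001. Their day 1 differences were 3.99, 11.1 and 2.89 points and their week 1 differences 0.086, 6.84 and -1.87 points. At chr16:20232001-20233000 the controls had 52.2% and 52.1%, the day 1 libraries 47.8%, 58.5%, 51.5%, 47.5% and 54.1%, and the week 1 libraries 47.0%, 47.3%, 56.8% and 52.5%. The groups overlapped fully, with a difference of -0.25 points at day 1. Its middle level was made of cytosines in opposite states, at 93.0%, 84.2%, 18.3%, 14.6%, 79.3% and 5.88% in the controls and 91.8%, 93.2%, 14.2%, 17.1%, 78.7% and 10.5% at day 1.

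Members were spread over the genome. They made up between 22.2% (chromosome 11) and 27.3% (chromosome 12) of the distal CpG-sparse tiles of a chromosome. The median day 1 difference was above 0 on all 20 chromosomes, from 9.59 points on chromosome 14 to 15.6 points on chromosome 10, and the week 1 difference ran from 7.29 to 11.8 points. Calls higher outnumbered calls lower at day 1 on every chromosome. Over all tiles tested higher calls also outnumbered lower ones (2.9% against 1.05%), which was not counted by chromosome. By distance to the nearest CpG-dense tile, the median day 1 difference was 13.3 points at 6 to 20 kb, 13.9 at 21 to 100 kb, 13.6 from there to 500 kb and 11.7 beyond that. By listed positions it was 12.7 points for tiles with up to 9, 12.8 for 10 to 14 and 14.5 for 15 to 19.

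Of the members, 388 (6.21%) stood in 165 runs of 2 or more with gaps of no more than 2 kb. Only 1084 members had an adjoining tile that was also tested. In the 1190 such pairs the adjoining tile was itself between 30% and 70% in NSC replicates 1 and 2 in 40.4%. Adjoining members that were both tested were counted once from each of them. The share in that range was 21.1% of all tiles tested and 24.7% of the distal CpG-sparse tiles. The adjoining tiles differed by a median of 6.39 points at day 1 and 3.34 points at week 1. The 2 longest runs held 8 members each. In the run at chr16:20291001-20302000 the day 1 differences were all above 0, from 1.87 to 16.7 points, and the week 1 differences ran from -12.6 to 17.1 points. In the run at chr9:9995001-10003000 the day 1 differences ran from -4.77 to 24.9 points. No tile of either run was called by edgeR, the lowest adjusted p being 0.0961 at chr9:10001001-10002000. There the controls had 36.6% and 29.0%, the day 1 libraries 64.5%, 44.0%, 63.3%, 53.6% and 62.9%, and the week 1 libraries 47.3%, 48.4%, 55.3% and 61.4%. All operated libraries lay above both controls, and week 1 replicate 1, at 47.3%, lay below NSC replicate 1, at 48.4%, which had helped to choose the tile.

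The members also varied more between libraries of a group than the distal tiles on the upper side. The SD over day 1 libraries had a median of 9.53 points in members, 5.13 points in distal tiles at 70% or more and 8.30 points in those under 30%. At week 1 the medians were 10.03, 6.10 and 8.21 points. The absolute difference between NSC replicates 3 and 4 had a median of 10.3 points in members, 5.91 points in tiles at 70% or more and 4.97 points in those under 30%. A share near the middle of the scale has a larger counting error than one near its ends, and the spread was not corrected for that.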

How the data were processed

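Genomic DNA was cut with MspI, fragments above 300 bp were removed, and libraries were made from bisulfite-converted DNA, per the labels' protocols. Trim Galore, FastQC, Bismark 0.23.0, methylKit 1.14.2 and the assembly mRatBN7.2 are named in the submitters' processing notes, without roles. The deposited files list, for each CpG cytosine, the count of methylated reads and the count of all reads. They also hold the authors' percent, which equals the ratio of the counts truncated to a whole number. Every listed cytosine has at least 5 reads, and the filter was checked on the values. Of 14 samples, 13 had a file. Groups came from the label that gives the time, and replicate numbers follow the order of accessions and pair nothing.

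The counts were used as deposited. Percent per library was recomputed from counts summed over the measured cytosines of a tile, and a group's percent is the mean over its libraries with reads. Methylated and unmethylated counts of 62737 tiles on chromosomes 1 to 20, X and Y were fitted with edgeR 4.0.16 (R 4.3.3), with 1 effect per library, group effects on the methylated count and a common dispersion. The 11 libraries without NSC replicates 1 and 2 entered 1 fit of all 3 groups, because the control group has 2 libraries, followed by quasi-likelihood F tests. Calls required a p below 0.05, adjusted by Benjamini and Hochberg over all tiles, and a difference of at least 10 points. The SE of a log2 odds ratio is approximate, from its size and the F statistic's root. The version of the quasi-likelihood fit was picked on simulated counts. A read covering several cytosines is counted at each, so Wilson intervals (95%) and limits for a count of 0 (3 counts over the reads) cover counting error only and are too narrow. Python 3.11.15, pandas 2.3.3, numpy 2.4.6, scipy 1.17.1 and matplotlib 3.10.9 were used for the rest.

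Members and lists were chosen with earlier results of these data known. The text names, for each comparison, the 6 top gains and 6 top losses in mean percent among called members whose groups do not overlap and with at least 10 reads in every library compared. It also names the 6 with the highest minimum of reads over 11 libraries, the 3 tiles on each side of each limit, and the longest runs of members with gaps of no more than 2 kb. Planned gene lists were not run, since annotation of mRatBN7.2 was not used here. Alternatives were other read and cytosine minimums, very deep cytosines left out (above the 99.9th percentile), 5 reads drawn per cytosine, limma 3.58.1 with and without centring, other sets of controls and each library left out.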

Additional observations from a re-analysis of the deposited data

Results flagged for a closer look

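In groups of 4 or 5 libraries, 90 groups of values were screened for a library whose gap to its nearest neighbour takes up most of the group's range (Dixon's criterion), and 9 were picked out. Chance alone picks about 1 in 20. Day 1 replicate 2 had reads in 1909 tested members, far fewer than the other day 1 libraries. In day 1, replicate 1 stood apart at chr10:28785001-28786000 with 100%, replicate 3 at chr11:77737001-77738000 with 33.3%, replicate 5 at chr8:104741001-104742000 with 61.1% and replicate 4 at chr9:10000001-10001000 with 80.3%. In week 1, replicate 4 stood apart at chr10:11174001-11175000 with 3.70%, where the other 3 libraries had 0%. Week 1 replicate 1 stood apart at chr11:77737001-77738000 with 25.7%, at chr16:20298001-20299000 with 74.2% and at chr1:55070001-55071000 with 65.7%.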

How the results depend on the processing

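No paired analysis was possible because replicate numbers follow accession order only. Against 487 calls at day 1 (8.05% of members, 3.95% of all tiles) and 193 at week 1 (3.19% and 1.64%), leaving out 1 library gave 1 to 531 and 0 to 246. With at least 10 reads at a cytosine, day 1 gave 277 of 1267 members and 1265 of 14047 tiles. With only the groups compared, the calls were 303 members and 1688 tiles at day 1 and 122 and 664 at week 1. With all 4 NSC libraries as controls, which include those that chose the members, they were 1627 and 7358 at day 1 and 847 and 4026 at week 1. With cytosines listed in all 11 libraries they were 100 of 418 members and 10.6% of 4719 tiles at day 1 and 52 and 261 at week 1. With at least 5 cytosines in a tile they were 201 of 1590 members tested (1605 in all) and 1425 of 30029 tiles, then 83 and 641. With 5 reads drawn they were 52 members (0.859%) and 401 tiles (0.639%), then 15 and 89. Limma gave 805 and 3623, then 498 and 2264. Added after seeing the data, the earlier quasi-likelihood method gave 264 and 1539, then 107 and 644. Limma centred on tiles read in all 11 libraries, also added, gave 975 members (594 higher, 381 lower) and 8213 tiles, then 390 (248 higher) and 1696. Limma centred on each library gave 366 members and 1578 tiles at week 1. The cause of these changes was not tested, beyond the fewer members measured. The median difference kept its direction against the controls under all 25 settings. It was 9.64 and 6.31 points with cytosines listed in all 11 libraries, where the values as reported gave 9.72 and 6.58 points on the same members, also added later. It was 4.06 and 3.61 points after centring each library and 3.92 and 4.23 points after centring on the common tiles. Week 1 minus day 1 turned to 0.13 and 1.01 points under these centrings. No setting called a member there, and with cytosines listed in all 11 libraries 2 of 4719 tiles were called. At the named tiles, 370 of 512 values under 24 settings kept their call, the others lost it and 0 reversed. Of the 24 calls at tiles named for their change, 19 were lost with 5 reads drawn at each cytosine, and all 24 without NSC replicate 3 or without NSC replicate 4.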
